A study of Rattus norvegicus with 12 samples.

Results

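The purine nucleoside adenosine is released or formed outside cells when neurons are active, and it acts through a family of 4 G protein-coupled receptors. The receptor encoded by *Adora1* couples to Gi proteins and inhibits adenylyl cyclase, whereas that encoded by *Adora2a* couples in the striatum to the olfactory-type stimulatory G protein and drives cyclic AMP signalling in the indirect pathway neurons, where it opposes the dopamine D2 receptor. *Adora2b* encodes a stimulatory receptor of lower affinity and *Adora3* a Gi-coupled receptor best known from immune cells. Extracellular adenosine is made from AMP by the ecto-5'-nucleotidase CD73 (*Nt5e*), crosses membranes through the equilibrative nucleoside transporters ENT1 (*Slc29a1*) and ENT2 (*Slc29a2*), and is cleared by phosphorylation through adenosine kinase (*Adk*), an enzyme that is abundant in astrocytes of the adult brain. These 8 genes, chosen by symbol, were all rows of the count table of 17337 genes, and their RNA was followed in the striatum of 12 rats.

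The rats were adult wild-type male Sprague–Dawley rats, and each library was made from the whole striatum of 1 rat. All 12 carry the label methamphetamine (MA). The MA12 rats (n = 4) were kept for 12 h and the MA24 rats (n = 4) for 24 h after the last of 16 days of MA self-administration. The other 4 also had 16 days of self-administration and carry the label non-addicted. What defined them, and when they were killed, is not given in the sources used here, so a difference from them cannot be assigned to abstinence. The study also describes a saline group and an MA group without abstinence. No libraries under those names were analysed here, and whether the non-addicted rats belong to either group is not given. Counts per library summed to between 17908962 and 23850284, and every library carries the same batch label. The rat numbers of the 4 MA24 rats and of MA12 rats 4N and 7N end in N, those of MA12 rats 21 and 31 and of the non-addicted rats do not, and the meaning of N is not given. Kind of number and group therefore cannot be told apart between non-addicted and MA24 rats.

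The tissue label fitted the markers. The summed level of 6 indirect pathway markers (*Drd2*, *Penk*, *Gpr6*, *Sp9*, *Gpr52* and *Ptprm*) lay between 2940 and 3922 CPM (counts scaled to a common library total) in every library, and that of 6 markers of cortical excitatory neurons between 4.54 and 13.1 CPM. Some lists of other cells moved with the groups. The mean log2 CPM of the endothelial markers was 0.41 lower in non-addicted than in MA24 rats and that of the oligodendrocyte markers 0.39 lower (exact permutation test over the 70 splits of 4 rats against 4, two-sided, p = 0.0286 for both, the smallest p that this design allows). Markers of mural cells and fibroblasts were 0.48 lower in non-addicted than in MA12 rats (exact permutation test, p = 0.0286), with *Col1a2* at 0 in every library. The list with the largest shifts was that of ependyma and choroid plexus, whose mean was 1.05 higher in non-addicted than in MA24 rats (exact permutation test, p = 0.0857) and 0.84 higher than in MA12 rats (exact permutation test, p = 0.143). Against MA24, all 6 of its genes had log2 FCs above 0, and 5 had an unadjusted p below 0.05, beside 17.5% of all genes. *Foxj1*, a regulator of cilia, was a DEG at 1.08 (adjusted p = 0.0354, edgeR), as were 0.456% of all genes. Without the filter that drops the least variable genes, 0 genes were DEGs against MA24, so this call depends on that filter. *Ttr*, the transthyretin gene of the choroid plexus, had fitted log2 FCs of 5.59 against MA24 (adjusted p = 0.0807, edgeR) and 5.91 against MA12 (adjusted p = 0.104, edgeR). In MA24 vs. MA12 *Ttr* was below the filter on the mean count. It thus entered the other comparisons only through the non-addicted rats, and its values there are no separate evidence of a group difference. The 6 genes summed to 36.9 to 93.5 CPM in non-addicted, 24.1 to 64.0 in MA12 and 27.0 to 43.5 CPM in MA24 rats. Direct pathway markers were 0.23 lower in MA24 than in MA12 rats (exact permutation test, p = 0.0286). Summed levels of the 6 measured of 8 endothelial markers were 293 to 415 CPM in non-addicted, 387 to 500 in MA12 and 465 to 515 CPM in MA24 rats, and those of all 6 oligodendrocyte markers 11667 to 17284, 12147 to 21700 and 18107 to 21237 CPM. The 8 mural and fibroblast markers summed to 73.1 to 98.4, 107 to 156 and 97.4 to 121 CPM, and the 5 measured of 6 direct pathway markers to 1068 to 1376, 1280 to 1572 and 1141 to 1326 CPM. These p-values are not adjusted over the lists, and the part of these lists in the results that follow was not tested. In whole tissue, fewer cells of a type and less RNA per cell cannot be told apart.

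Of the 8 genes, 6 were measured well enough to be tested, and none was a DEG in any comparison. DEGs had an adjusted p below 0.05 (edgeR quasi-likelihood test, Benjamini-Hochberg over all genes tested) and a fold change (FC) of at least 1.5. In MA24 vs. MA12, 0 of 6 passed, beside 264 of 10754 genes in all (2.45%). In non-addicted vs. MA12, 0 of 6 passed, beside 27 of 10758 (0.251%). Of the 5 tested in non-addicted vs. MA24, 0 passed, beside 49 of 10744 (0.456%). At an unadjusted p below 0.05, edgeR counted 1 of the genes, *Adora1*, in each of the comparisons with MA12, beside 23.6% and 12.3% of all genes, and 0 in non-addicted vs. MA24, beside 17.5%. DESeq2 also called 0 of the genes in each comparison. The largest of the 18 log2 FCs was -0.41. Of their 95% intervals, 14 lay wholly inside a 1.5-fold change in either direction, and the other 4 belonged to *Adora1* and *Adora2b*.

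**Figure D1:**
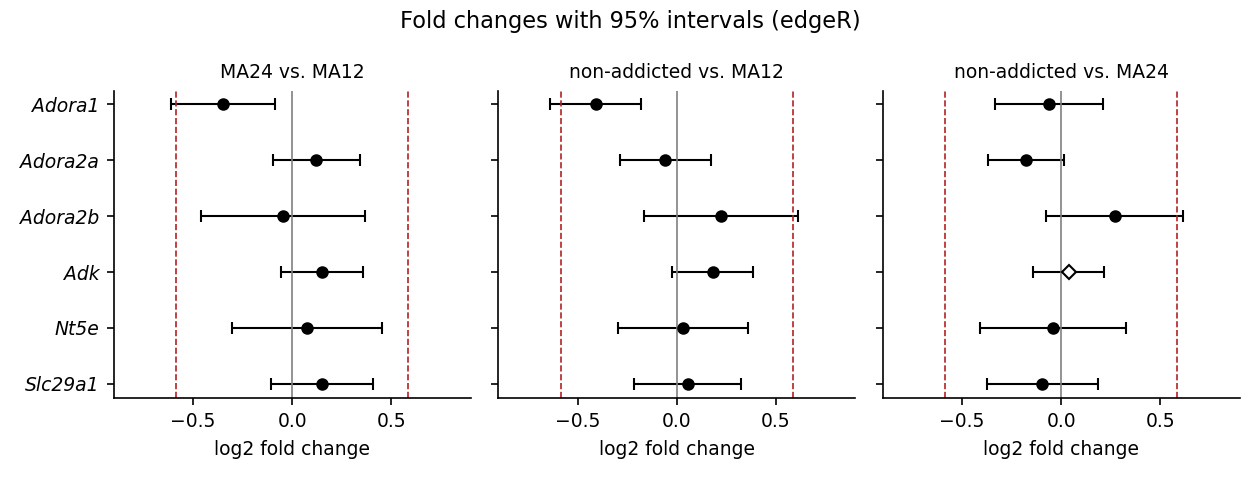
Log2 FC of the 6 tested genes in the 3 comparisons (horizontal axis) with the 95% interval of the edgeR fit. Dashed lines mark a 1.5-fold change. The open diamond is *Adk* in non-addicted vs. MA24, taken from the fit without the variance filter. In the fits shown, the intervals of *Adora1* in both comparisons with MA12 are the only 2 that leave out 0.

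*Adora1* RNA was highest in the MA12 rats. Its level was 5.96, 5.84, 6.19 and 6.12 log2 CPM in MA12 rats 21, 31, 4N and 7N, against 5.49, 5.74, 5.45 and 5.80 in non-addicted rats 9, 11, 12 and 13. MA24 rats 9N, 14N, 15N and 16N had 5.92, 5.32, 5.58 and 5.84. All MA12 rats thus stood above all non-addicted rats, by a narrow gap, while 2 of the 4 MA24 rats, 9N and 16N, were above the lowest MA12 rat, 31.

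Group means of *Adora1* were 5.62 ± 0.18 (non-addicted), 6.03 ± 0.16 (MA12) and 5.67 ± 0.27 log2 CPM (MA24; SD, n = 4 each). The log2 FC was -0.41 ± 0.11 (SE) in non-addicted vs. MA12, which is a level in the non-addicted rats of 0.753 times that in the MA12 rats, with an adjusted p of 0.124 (edgeR). The groups did not overlap (exact permutation test, p = 0.0286), as was so for 6.65% of all genes in this comparison. In MA24 vs. MA12 it was -0.35 ± 0.13 (95% interval -0.61 to -0.09), with an adjusted p of 0.104 (edgeR). Here the groups overlapped (exact permutation test, p = 0.0857). Between non-addicted and MA24 rats the log2 FC was -0.06, with a 95% interval of -0.33 to 0.21.

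Both kinds of number met in the MA12 group, and its N rats had the higher *Adora1* values. Among rats without N alone (4 against MA12 rats 21 and 31), the log2 FC of non-addicted vs. MA12 was -0.26 with an adjusted p of 0.535 (edgeR). Among rats with N alone, that of MA24 vs. MA12 was -0.46 with an adjusted p of 0.114 (edgeR). Without MA24 rat 9N, which had the highest level of its group, the log2 FC of MA24 vs. MA12 was -0.44 and its adjusted p 0.0448 (edgeR), still less than a 1.5-fold change. Without MA24 rat 14N, the lowest of its group, it was -0.25 (adjusted p = 0.252, edgeR). Leaving out MA12 rat 4N, the highest of its group, gave -0.29 (adjusted p = 0.192, edgeR). No other single omission brought the adjusted p below 0.05.

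In RefSeq annotation of the GRCr8 assembly, *Adora1* overlaps *Mybph*, a gene for a myosin-binding protein of muscle. The library kit does not keep strand, so reads in the shared stretch cannot be assigned to either gene with certainty. *Mybph* had 806 to 1241 counts per library, close to the 808 to 1547 counts of *Adora1*. Its log2 FC was -0.06 in MA24 vs. MA12 and -0.23 in non-addicted vs. MA12. When both counts were summed, the log2 FC was -0.21 (adjusted p = 0.245, edgeR) in MA24 vs. MA12, and -0.33 (adjusted p = 0.227, edgeR) in non-addicted vs. MA12.

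*Adora2a* was steady. Its counts, 16964 to 22696 per library, leave little counting error, and its highest rat was 1.33 times its lowest. The level was 9.83, 9.71, 9.72 and 9.88 log2 CPM in non-addicted rats 9, 11, 12 and 13. MA12 rats 21, 31, 4N and 7N had 9.65, 9.68, 10.02 and 9.97. MA24 rats 9N, 14N, 15N and 16N had 9.93, 9.90, 9.94 and 10.07. All 6 rats with N were above all 6 rats without, and so were both N rats within the MA12 group. The share of all genes that separate in this way was not computed, so the pattern cannot be called particular to *Adora2a*.

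Group means of *Adora2a* were 9.79 ± 0.09 (non-addicted), 9.83 ± 0.19 (MA12) and 9.96 ± 0.08 log2 CPM (MA24; SD, n = 4 each). The log2 FC was 0.12 (95% interval -0.10 to 0.34) in MA24 vs. MA12 and -0.06 (-0.29 to 0.17) in non-addicted vs. MA12. With the kind of number as a covariate these values were -0.04 and 0.12, of opposite sign. The log2 FC was -0.18 (-0.37 to 0.01) in non-addicted vs. MA24, with an adjusted p of 0.313 (edgeR). In that comparison the groups did not overlap (exact permutation test, p = 0.0286), which held for 9.41% of all genes. In MA24 vs. MA12 the groups overlapped in all 6 adenosine genes, while 14.4% of all genes had no overlap.

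**Figure D2:**
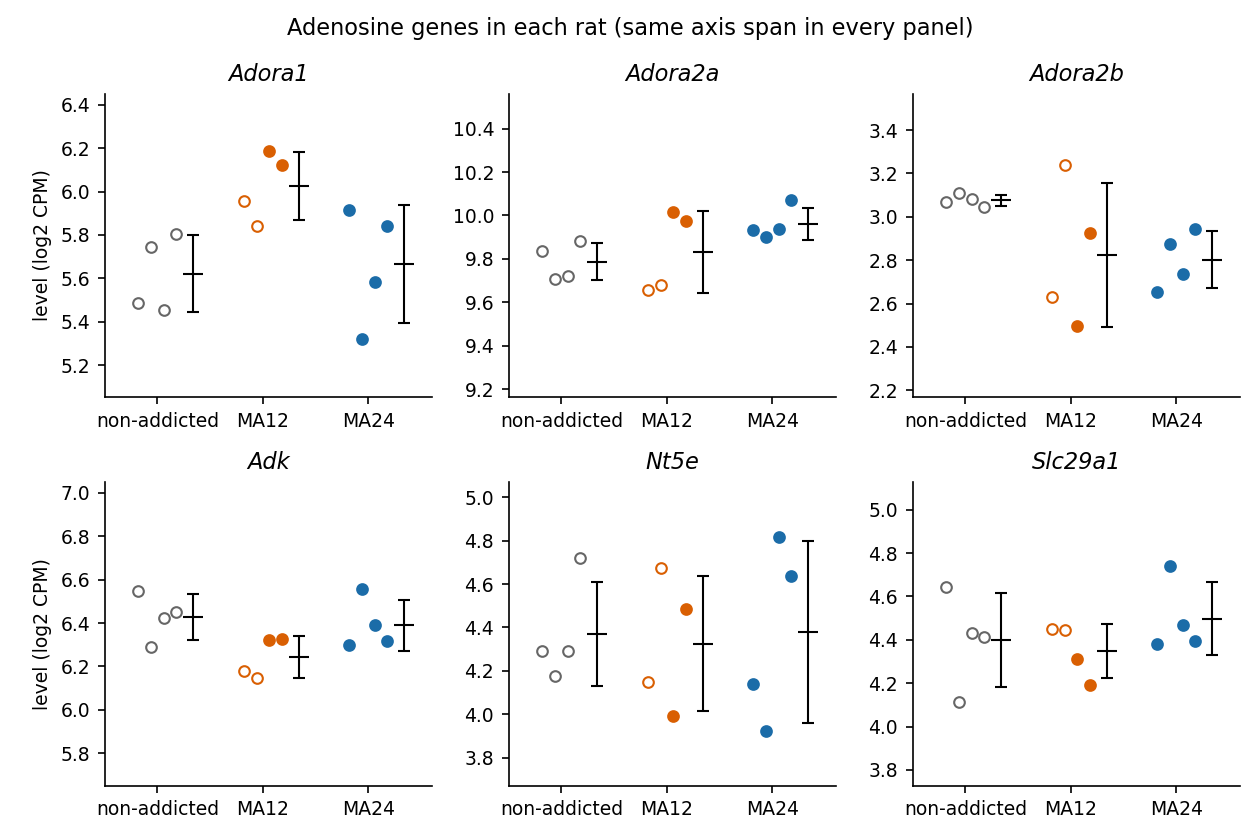
Level of each tested gene (vertical axis, log2 CPM, prior count of 2) in each rat, with every panel spanning the same range. Filled points are rats with N in their number, open points those without, and bars are mean ± SD (n = 4). *Adora1* is highest in MA12, at 6.03 ± 0.16. In *Adora2a* every filled point, from 9.90 upward, is above every open point, up to 9.88. How many of all genes do the same was not computed.

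Since *Adora2a* is a gene of the indirect pathway neurons, its level was also set against the mean of the 6 markers of those cells. That mean was 7.83 ± 0.03, 7.90 ± 0.10 and 7.86 ± 0.05 log2 CPM in non-addicted, MA12 and MA24 rats (SD, n = 4 each). *Adora2a* exceeded it by 1.96 ± 0.06, 1.93 ± 0.13 and 2.10 ± 0.05 on the log2 scale. The excess was 0.14 smaller in non-addicted than in MA24 rats, with no overlap (exact permutation test, p = 0.0286). The marker mean itself differed by -0.033 between these groups (exact permutation test, p = 0.314), and the kind of rat number is not separable from group here. The excess of *Adora2a* was 0.17 larger in MA24 than in MA12 rats (exact permutation test, p = 0.0857). Within MA12 it was 2.10 and 1.94 in rats 4N and 7N, against 1.81 and 1.88 in rats 21 and 31. The part of the kind of rat number in this difference was not tested. Non-addicted and MA12 rats differed by 0.03 (exact permutation test, p = 0.771).

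Across the 12 rats, *Adora2a* and the marker mean gave a Pearson r of 0.65 (permutation test, p = 0.0175, adjusted p = 0.0702 over 8 tests) and a Spearman rho of 0.79 (permutation test, p = 0.00346, adjusted p = 0.0277). Without the 2 rats farthest from the median, MA12 rat 7N and MA24 rat 16N, r was 0.64. It was 0.47 among the 6 rats with N and 0.53 among the 6 without. Both measures come from the same libraries, so they share depth and tissue composition. *Nt5e*, in the striatum also a gene of these neurons, gave an r of 0.12 with the same mean (permutation test, p = 0.740).

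**Figure D3:**
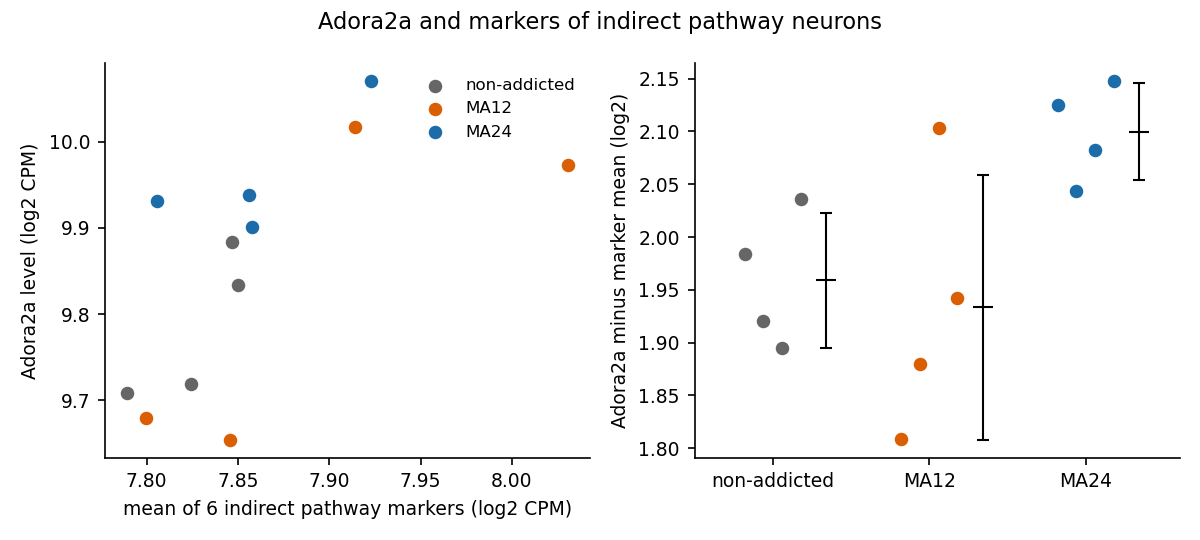
Left, *Adora2a* (log2 CPM) against the mean of the 6 indirect pathway markers (log2 CPM), 1 point per rat, with r = 0.65 over 12 rats. Right, the difference of these values per rat, with mean ± SD (n = 4), which was 1.96 in non-addicted, 1.93 in MA12 and 2.10 in MA24 rats.

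*Adora2b* was near 3 log2 CPM, with 118 to 224 counts per library, so counting error weighs more here. The 4 non-addicted rats were close together at 3.07, 3.11, 3.08 and 3.05 log2 CPM. MA12 rats 21, 31, 4N and 7N had 2.63, 3.24, 2.50 and 2.93, and MA24 rats 9N, 14N, 15N and 16N had 2.65, 2.88, 2.74 and 2.94. The non-addicted values stood above all MA24 values and inside the spread of MA12, where rat 31 was highest of all 12.

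The log2 FC of *Adora2b* in non-addicted vs. MA24 was 0.27 ± 0.17 (SE; 95% interval -0.08 to 0.61), with an adjusted p of 0.393 (edgeR) and no overlap between the groups (exact permutation test, p = 0.0286). No overlap held for 9.41% of all genes in this comparison, where kind of rat number and group cannot be told apart. In non-addicted vs. MA12 the log2 FC of *Adora2b* was 0.22 ± 0.19, and without MA12 rat 31 it was 0.38, with an adjusted p of 0.454 (edgeR). In MA24 vs. MA12 it was -0.05 and turned to 0.11 without that same rat. Between these groups *Adora2b* thus has no direction that holds.

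*Adora3* had 0 counts in all 12 libraries. A count of 0 allows up to 3 counts, which is 0.126 to 0.168 CPM in a single library and 0.0119 CPM over the 251354484 counts of all libraries together. In RefSeq annotation the gene overlaps *Tmigd3*, and how reads in such stretches were counted is not given. *Adora3* RNA was therefore not detectable in this table, with no bearing on what reads in a shared stretch would have shown.

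Adenosine kinase (*Adk*) varied little, by 1.33-fold between the lowest and the highest of 12 rats. Its level was 6.55, 6.29, 6.42 and 6.45 log2 CPM in non-addicted rats 9, 11, 12 and 13, and 6.18, 6.14, 6.32 and 6.33 in MA12 rats 21, 31, 4N and 7N. MA24 rats 9N, 14N, 15N and 16N had 6.30, 6.56, 6.39 and 6.32. The MA12 mean was the lowest of the 3, but the ranges of all groups met.

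The log2 FC of *Adk* was 0.15 ± 0.10 (SE) in MA24 vs. MA12, with an adjusted p of 0.369 (edgeR), and 0.18 ± 0.10 in non-addicted vs. MA12, with an adjusted p of 0.472 (edgeR). Among rats without N alone, non-addicted vs. MA12 gave 0.28, with an adjusted p of 0.438 (edgeR). With the kind of number as a covariate, MA24 vs. MA12 gave 0.06. In non-addicted vs. MA24, *Adk* was among the 15% of genes with the lowest variance that the filter removes, and without that filter its log2 FC was 0.04 (95% interval -0.14 to 0.22). Set against the mean of 9 astrocyte markers, *Adk* was 0.26 higher on the log2 scale in non-addicted than in MA12 rats (exact permutation test, p = 0.143) and 0.18 higher in MA24 than in MA12 rats (exact permutation test, p = 0.171). Among these markers *Slc1a2* was itself a DEG in MA24 vs. MA12 (log2 FC -0.70, adjusted p = 0.0328, edgeR), as were 2.45% of all genes. Without the variance filter its adjusted p was 0.0676 (edgeR). In that comparison 5 of the markers had log2 FCs above 0 and 4 below. Across the 12 rats the r of *Adk* with the astrocyte mean was -0.28 (permutation test, p = 0.379). It was -0.76 among the 6 rats with N and -0.20 among the 6 without, values that were not tested.

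The ecto-5'-nucleotidase gene *Nt5e* was the most variable of the 6, with a 1.86-fold range over the 12 rats. It had 306 to 609 counts per library. Non-addicted rats 9, 11, 12 and 13 had 4.29, 4.17, 4.29 and 4.72 log2 CPM, and MA12 rats 21, 31, 4N and 7N had 4.15, 4.67, 3.99 and 4.49. MA24 rats 9N, 14N, 15N and 16N had 4.14, 3.92, 4.82 and 4.64. Most of this spread was between rats of the same group, and the group means of 4.37 ± 0.24, 4.33 ± 0.31 and 4.38 ± 0.42 (SD, n = 4 each) almost coincided. The log2 FCs were 0.07, 0.03 and -0.04 in MA24 vs. MA12, non-addicted vs. MA12 and non-addicted vs. MA24, with all 3 intervals inside -0.41 to 0.45.

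For the transporter ENT1, *Slc29a1*, the level was 4.64, 4.11, 4.43 and 4.41 log2 CPM in non-addicted rats 9, 11, 12 and 13. It was 4.45, 4.44, 4.31 and 4.19 in MA12 rats 21, 31, 4N and 7N, and 4.38, 4.74, 4.47 and 4.40 in MA24 rats 9N, 14N, 15N and 16N. The groups overlapped throughout. The log2 FC was 0.15 (95% interval -0.10 to 0.41) in MA24 vs. MA12, 0.05 in non-addicted vs. MA12 and -0.10 in non-addicted vs. MA24. *Slc29a1* had an r of 0.05 with the mean of the 6 measured endothelial markers (permutation test, p = 0.880), which became 0.56 without non-addicted rats 9 and 12, so the value rests on those rats.

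The second transporter, *Slc29a2*, was close to absent, with 19 counts in 12 libraries, at most 6 in one and 0 in 4. The groups held 9 (non-addicted), 4 (MA12) and 6 counts (MA24). As shares these are 0.109 CPM (95% Poisson interval 0.04997 to 0.207), 0.0469 CPM (0.0128 to 0.1202) and 0.0716 CPM (0.0263 to 0.156), which overlap and cover counting error only. With a mean of 1.58 counts it was below the filter of 4, as was *Adora3*, and no FC is given.

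Taking the receptor and the handling genes side by side, the 3 tested handling genes had log2 FCs above 0 in both comparisons with MA12, with medians of 0.15 and 0.05, while the medians of the 3 tested receptors were -0.05 and -0.06. The median over all genes was -0.00485 and -0.00754. Both comparisons use the same 4 MA12 rats, so these directions are not separate observations. Per rat, *Adora1* minus *Adora2a* on the log2 scale lay between -3.85 and -3.70 in MA12, between -4.35 and -3.97 in non-addicted and between -4.58 and -4.01 in MA24 rats. The MA12 values stood above those of both other groups. This difference was not among the planned tests, and no share over other pairs of genes was computed. It carries the uncertainty of the *Adora1* counts that comes from the overlap with *Mybph*. No gene length was applied, so only the change of this difference between groups can be read. Across the 12 rats *Adora1* went against *Adk* (r = -0.67) and *Slc29a1* (r = -0.68), values from the same libraries that are given as a description.

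The stretch before each gene's start was taken from RefSeq (GRCr8), where 7 of the 8 genes had a window, all but *Adora2a*. The windows of *Adora1* and *Adk*, a receptor and a handling gene, are shown as examples. Across the rats *Adora1* went against *Adk* (r = -0.67) and *Slc29a1* (r = -0.68) alike, so levels do not single out this pair. Each run holds the 250 bases before the start, read 5' to 3' on the gene's strand, at chr13:48246832-48247081 (minus strand) for *Adora1* and chr15:3295746-3295995 (minus strand) for *Adk*. Capitals mark GC boxes, searched as GGGCGG on both strands, with overlaps counted.
Adora1: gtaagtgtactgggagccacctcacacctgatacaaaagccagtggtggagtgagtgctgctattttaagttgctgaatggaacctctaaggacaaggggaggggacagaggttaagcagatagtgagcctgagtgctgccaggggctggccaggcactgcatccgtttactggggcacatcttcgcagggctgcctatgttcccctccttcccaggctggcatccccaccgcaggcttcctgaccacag
Adk: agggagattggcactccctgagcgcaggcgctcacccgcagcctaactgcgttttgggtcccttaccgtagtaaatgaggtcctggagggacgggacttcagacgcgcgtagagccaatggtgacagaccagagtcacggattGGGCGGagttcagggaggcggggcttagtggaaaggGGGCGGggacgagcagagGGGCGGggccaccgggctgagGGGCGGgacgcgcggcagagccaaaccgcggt
The *Adk* window held 4 GC boxes and 22 CpG, and the *Adora1* window 0 GC boxes and 3 CpG, beside a median of 5 CpG over 33469 rat windows. GC boxes were in 5 of the 7 windows and in 30.5% of all windows. The E-box CACGTG was in 1 of the 7 (*Slc29a2*) and in 5.59% of all, and the cyclic AMP response element TGACGTCA in 0 of the 7 and in 1.59% of all. The *Slc29a1* window, not shown, held 2 GC boxes and 16 CpG. These are matches of letters, no binding was measured, and a relation of the windows to RNA levels was not tested.

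Of 31 other genes of adenosine production, breakdown and transport, 30 were in the table and 25 had a mean count above 4 in each comparison with MA12 (24 in non-addicted vs. MA24). After the variance filter 21, 22 and 19 were tested in MA24 vs. MA12, non-addicted vs. MA12 and non-addicted vs. MA24. None was a DEG by edgeR. At an unadjusted p below 0.05 there were 2, 3 and 2, beside 23.6%, 12.3% and 17.5% of all genes. The median log2 FCs were -0.05, -0.02 and -0.03. Ecto-nucleotidases of the *Entpd* and *Enpp* families, adenosine deaminase (*Ada*) and the S-adenosylhomocysteine hydrolase genes (*Ahcy*, *Ahcyl1* and *Ahcyl2*) were all without a call or not tested.

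The largest positive value in this list belonged to *Slc28a2*, a concentrative nucleoside transporter that carries adenosine into cells with sodium. It had 119, 101, 74 and 101 counts in MA12 rats 21, 31, 4N and 7N, against 139, 212, 178 and 103 in MA24 rats 9N, 14N, 15N and 16N, and 124, 143, 225 and 101 in non-addicted rats 9, 11, 12 and 13. The log2 FC was 0.75 in MA24 vs. MA12 (adjusted p = 0.0698, edgeR) and 0.61 in non-addicted vs. MA12 (adjusted p = 0.267, edgeR), with overlap in both. Its relative *Slc28a3* had 15, 10, 4 and 21 counts in MA12 rats against 2, 1, 8 and 0 in non-addicted rats. The fitted log2 FC of -2.18 (adjusted p = 0.278, edgeR) rests on these few counts. The plasma membrane monoamine and adenosine transporter *Slc29a4* gave 0.33 in MA24 vs. MA12 (adjusted p = 0.125, edgeR), and the AMP deaminase *Ampd2* 0.18 (adjusted p = 0.251, edgeR). In non-addicted vs. MA24 the lysosomal transporter *Slc29a3* gave -0.41 (adjusted p = 0.136, edgeR) and the purine nucleoside phosphorylase *Pnp* -0.28 (adjusted p = 0.152, edgeR), both without overlap between the groups. That held for 2 of the 24 genes of the list with a mean count above 4, beside 9.41% of all genes. *Pnp* was also lower in non-addicted than in MA12 rats, by a log2 FC of -0.23 (adjusted p = 0.391, edgeR).

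**Figure D4:**
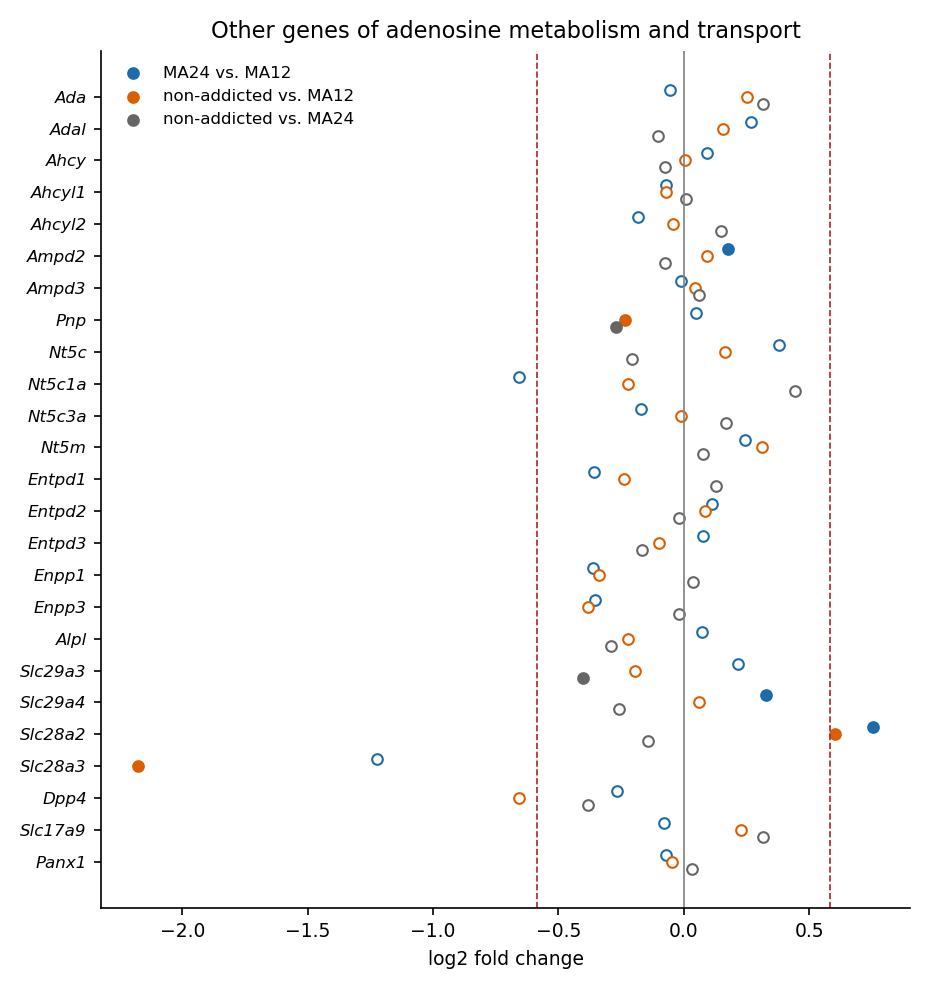
Log2 FC (horizontal axis) of 25 other genes of adenosine metabolism and transport in the 3 comparisons, from the edgeR fit without the variance filter. Filled points have an unadjusted p below 0.05, and dashed lines mark a 1.5-fold change. Most points lie inside the dashed lines, and the point farthest left is *Slc28a3* at -2.18, a gene with 0 to 21 counts.

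Among 14 genes that couple the receptors to cyclic AMP in striatal neurons, 10, 11 and 10 were tested in the 3 comparisons. None was a DEG by edgeR, and 5, 2 and 3 had an unadjusted p below 0.05, beside 23.6%, 12.3% and 17.5% of all genes. *Gnai1*, an inhibitory G protein subunit of the kind the *Adora1* receptor uses, was lower in MA24 than in MA12 rats with a log2 FC of -0.38 (adjusted p = 0.0451, edgeR), short of the FC threshold. Its levels were 6.75, 6.68, 6.58 and 6.45 log2 CPM in MA12 rats 21, 31, 4N and 7N, and 6.46, 6.06, 6.28 and 6.12 in MA24 rats 9N, 14N, 15N and 16N. Only the lowest MA12 and the highest MA24 rat met. Its log2 FC was 0.39 in non-addicted vs. MA24 (adjusted p = 0.112, edgeR), without overlap, as was so for 9.41% of all genes.

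The striatal phosphodiesterase *Pde10a*, which degrades cyclic nucleotides, was at 9.18, 9.17, 9.46 and 9.19 log2 CPM in MA12 rats 21, 31, 4N and 7N. MA24 rats 9N, 14N, 15N and 16N had 9.09, 8.23, 8.81 and 8.88, and the non-addicted rats lay between 8.43 and 9.02. MA12 rats were above all others. Groups did not overlap in 14.4% of all genes in MA24 vs. MA12 and in 6.65% in non-addicted vs. MA12. The log2 FC was -0.47 in MA24 vs. MA12 (adjusted p = 0.0554, edgeR) and -0.42 in non-addicted vs. MA12 (adjusted p = 0.145, edgeR). *Prkacb*, a catalytic subunit of protein kinase A, gave -0.46 (adjusted p = 0.0620, edgeR) and -0.33 (adjusted p = 0.170, edgeR) in the same comparisons, also without overlap. *Pde1b*, a calcium-dependent phosphodiesterase, gave -0.18 in non-addicted vs. MA12 (adjusted p = 0.531, edgeR). The other 2 of the 5 in MA24 vs. MA12 had values above 0. *Rgs9*, a regulator of G protein signalling, gave 0.33 there (adjusted p = 0.0791, edgeR), without overlap, and -0.30 in non-addicted vs. MA24 (adjusted p = 0.145, edgeR). *Ppp1r1b*, the gene of DARPP-32, gave 0.29 (adjusted p = 0.155, edgeR) and -0.29 (adjusted p = 0.170, edgeR) in the same comparisons. Within MA12, *Rgs9* was at 9.78 and 9.89 log2 CPM in rats 4N and 7N, against 9.42 and 9.59 in rats 21 and 31. *Ppp1r1b* was at 12.96 and 13.06 in rats 4N and 7N, against 12.53 and 12.67. The part of the kind of rat number in these values was not tested, and in non-addicted vs. MA24 it cannot be told apart from group.

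The genes whose levels were most like those of the adenosine genes over the 12 rats were sought among 10764 genes with a mean count of at least 50. For *Adora1* they were *Wwc2* (r = 0.93), *Pitpna* (0.90) and *Ccny* (0.89), and for *Adora2a* *Eef1a2* (0.96), *Shisa4* (0.96) and *Ccdc97* (0.95). *Adora2b* was nearest to *Crocc* (0.88) and *Gzf1* (0.88), and *Adk* to *Eif1* (0.92), *Ckmt1b* (0.91) and *Cipc* (0.91). *Nt5e* was nearest to *Pdcd2l* (0.89), *Slc17a8* (0.83) and *Sema4b* (0.83), and *Slc29a1* to *Gtf2h5* (0.93), *Bex1* (0.93) and *Med11* (0.91). Each is among the highest of all the values of r computed over 12 libraries, and these are given as descriptions.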

How the data were processed

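Striatal poly-A RNA of 12 rats was sequenced as paired-end reads. Per the labels and the study's methods, the authors used Cutadapt 1.18 for trimming, STAR 2.7.0e for alignment (rn6) and featureCounts for counts per gene, and the submitters' notes also name HTSeq 0.12.4. They deposited raw counts of 17337 genes, without normalization. How strands and multiply mapped reads were counted is not given in the sources used here, so counts of overlapping genes are uncertain. No rn6 annotation was used here.

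For each comparison of 8 libraries, genes needed a mean count above 4, the least variable 15% (by log2 CPM) were dropped, and the groups were compared by TMM and edgeR 4.0.16 (glmQLFit and glmQLFTest, R 4.3.3) with Benjamini-Hochberg adjustment over all genes left. Levels were computed as log2 CPM, prior count 2. The 95% intervals are unadjusted. Single values were compared by two-sided exact permutation tests over 70 splits, and relations by 100000 permutations (Python 3.11.15, numpy 2.4.6, scipy 1.17.1, pandas 2.3.3). p-values measure the spread between rats. At 17908962 to 23850284 counts per library, a gene near the filter has a large counting error.

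The 8 genes, the gene lists and the tests were chosen with earlier results of these data known. Text names all 8 genes, the list genes that were called or had the 3 smallest p per list and comparison, and the 3 genes most correlated with each gene, of which 1 is not reported here. Genes named only as examples of no call, the ependymal markers, the astrocyte marker *Slc1a2* and the overlapping *Mybph* and *Tmigd3* were added after their values were seen. Alternatives were DESeq2 1.42.0, RLE factors, other filters, all 3 groups in 1 fit, each rat left out, and the kind of rat number. Summing *Adora1* and *Mybph* was chosen after seeing the data.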

Additional observations from a re-analysis of the deposited data

How the results depend on the processing

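None of the adenosine genes was called under any alternative run. Of 266 values of their log2 FCs under alternatives, 243 kept their sign and 23 changed it, all between values close to 0, and the lowest adjusted p was 0.0448 (*Adora1* in MA24 vs. MA12 without MA24 rat 9N). *Adora1* kept its sign in every alternative run of both comparisons with MA12, between -0.48 and -0.21 in MA24 vs. MA12 and between -0.47 and -0.26 in non-addicted vs. MA12. No paired analysis was possible because the groups share no replicate numbers.

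Signs turned as follows, in log2 FC. In MA24 vs. MA12, the number kind as a covariate gave -0.039 for *Adora2a* and 0.077 for *Adora2b*, rats with N alone gave 0.093 for *Adora2b*, and leaving out single rats gave -0.15 to 0.11 for *Adora2b* and -0.087 to 0.21 for *Nt5e*. In non-addicted vs. MA12, the covariate gave 0.12 for *Adora2a*, -0.049 for *Nt5e* and -0.034 for *Slc29a1*, rats without N alone gave -0.037 for *Nt5e* and -0.021 for *Slc29a1*, and leaving out single rats gave -0.11 to 0.021 for *Adora2a*, -0.086 to 0.16 for *Nt5e* and -0.026 to 0.15 for *Slc29a1*. In non-addicted vs. MA24, leaving out single rats gave -0.17 to 0.030 for *Adora1* and -0.18 to 0.12 for *Nt5e*.

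*Adora2a* relative to its markers gave 0.12 to 0.22 in MA24 vs. MA12 when single rats were left out. There p fell to 0.0286 (exact permutation test) only without MA12 rat 4N, a rat with N and the highest of its group. Values were -0.016 to 0.082 in non-addicted vs. MA12. In non-addicted vs. MA24 they were -0.17 to -0.12, and 6 of the 8 gave p = 0.0571 (exact permutation test). With the median of the markers, non-addicted vs. MA12 gave -0.025. *Adk* relative to astrocyte markers gave -0.053 in non-addicted vs. MA24 with the median, and -0.058 to 0.17 without single rats.

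The count of DEGs among all genes, the background used above, was less stable. In MA24 vs. MA12 (264), it was 116 in rats with N alone, 47 with the covariate and 129 to 436 without single rats (129 without MA24 rat 14N, 151 without MA12 rat 21, 436 without MA24 rat 9N). In non-addicted vs. MA12 (27), it was 75 by DESeq2, 12 without filters, 4 where each library needed 10 counts, 5 when the variance filter was dropped, 16 with 3 groups in the fit, 63 in rats without N, 10 with the covariate and 8 to 93 without single rats. In non-addicted vs. MA24 (49), it was 126 by DESeq2, 10 without filters, 2 with 3 groups in the fit and 0 to 187 without single rats. There it was also 0 by edgeR where each library needed 10 counts, and 0 when the variance filter was dropped, with 2146 and 2229 genes at an unadjusted p below 0.05. Without non-addicted rat 12 it was 0, with 1211 such genes. The cause was not tested.

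With 4 rats a group, an exact test cannot go below 0.0286, and *Adora3* and *Slc29a2* are limited by their counts.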
